A study of Mus musculus with 24 samples.

Results

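Mammary glands of virgin mice that carry a point mutation in Socs2 were compared with glands of wild-type virgins. The knock-in animals were C57BL/6 females homozygous for the R96C SOCS2 allele, and the controls were wild-type C57BL/6 females; both were virgins at 8 weeks of age. The 14 arrays whose titles name these groups, 7 knock-in and 7 wild type, were taken from the 24 arrays of the series. The other 10, from 5 knock-in and 5 wild-type females at pregnancy day 18, served to estimate the spread and as separate animals, whose values are given beside some virgin results. Each array holds RNA of the number 4 inguinal gland of 1 mouse, frozen after removal of its lymph node. RNA was labelled with Cy3 and hybridized to 1-colour Agilent mouse arrays.

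SOCS2 belongs to the suppressors of cytokine signalling, which are switched on by STAT5 after growth hormone or prolactin binds its receptor and then damp the same pathway. Its SH2 domain binds phosphorylated tyrosines on receptors, and its SOCS box recruits a ubiquitin ligase made of elongins, a cullin and a RING protein. The substituted arginine lies in the phosphotyrosine pocket of the SH2 domain, and the same substitution is known in dairy sheep, where it is linked to udder inflammation. An array of this kind does not read a substitution in a single codon, so the genotypes rest on the labels.

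Of the probes kept after removal of dim ones, 4 were assigned to Socs2 by accession or gene name. All 4 lie on chromosome 10 of the mm9 assembly, on the minus strand. Their sequences are shown because they gave opposite differences between the genotypes. Probe A_55_P1992838 covers chr10:94875468-94875527 and is given whole. Probes A_51_P107362 (chr10:94875066-94875125), A_52_P84037 (chr10:94850747-94850806) and A_55_P2072586 (chr10:94848005-94848064) are given by their first 30 bases. All run 5′ to 3′ as in the deposited files, in lower case with no base marked.
A_55_P1992838: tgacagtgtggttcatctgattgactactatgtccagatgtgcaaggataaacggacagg
A_51_P107362: aggtgtgaagatgtagctaggtattttaaa
A_52_P84037: tgtcataggagaaactacatctgggaaatt
A_55_P2072586: gccaatgctgacacaaagacaatctcttaa

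The first pair lies within 402 bp and is called proximal here. The others start 24721 and 27463 bp from A_55_P1992838, at lower coordinates and so on the 3′ side of a gene read from the minus strand, and are called distal. Exon and UTR annotation on mm9 was not used here.

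Values are log2 processed signals relative to the 75th percentile of their array, differences are knock-in minus wild type, and ± gives the standard error except where SD is written. After removal of dim probes, 35114 probes of 22380 genes were tested with limma, and each gene is described by its brightest probe. At an adjusted p under 0.05, 0 probes were higher (percent called: 0) and 0 were lower in knock-in virgins. At an unadjusted p under 0.05, 487 probes were higher (1.39%) and 568 lower (1.62%), 3% of those tested. By gene, 314 were higher (1.4%) and 481 lower (2.15%), together 3.55%. Without knock-in mouse 384 these counts were 847 genes higher and 1142 lower. All these counts took the spread from the virgin and day-18 arrays together. A fit to the 14 virgin arrays only gave fewer probes at an unadjusted p under 0.05, 305 higher and 258 lower, beside 487 and 568. Of all genes, 9162 (40.9%) had a difference above 0 and 464 (2.07%) a difference of at least 1 in either direction. At day 18 the corresponding unadjusted count was 443 genes (1.98%). The median standard error was 0.26 and the median 95% interval spanned 0.54 on either side of the estimate, a 1.46-fold change. For a gene of that median, a smaller change had an interval that included 0. The interval is that of a single gene before adjustment, and larger changes were also not called over all probes. Socs2 probe A_55_P2072586, 2.88-fold higher in knock-in virgins, had a limma adjusted p of 0.543. Nothing below passed over all probes or genes in this fit. The limma adjusted p of the virgin difference with all arrays was 0.742 for each gene or Socs2 probe given, unless another is printed. That value does not apply to differences at day 18 or from fits that left out arrays. At an unadjusted p under 0.05, list counts below are to be read against 2.15% of all genes lower and 1.4% higher. List medians are to be read against −0.10 over all genes, a value that depended on brightness. With all arrays it was 0.41 among the 5595 dimmest genes and −0.29 among the 5595 brightest. Lists of dim or of bright genes therefore have a different background. The list counts rest on fits that include day-18 arrays, and none is given for the fit to virgin arrays only.

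Some glands stood apart. Negative-control spots read 332 on the array of knock-in mouse 376, while the other virgin arrays read 19.4 to 31.8, and 57003 of its 59305 non-control spots counted as well above background against 36168 to 39174. Among the 5595 dimmest genes the median difference was 0.41 with this array and 0.05 without it, and among the 5595 brightest it was −0.29 with and 0.00 without it. The median SD of a gene was 0.27 in wild-type virgins, 0.75 in knock-in virgins and 0.28 in knock-in virgins without mice 376 and 198. Knock-in mouse 198 had a mean of −3.01 over 25 luminal epithelium genes, where the next lowest virgin had 0.04, and a mean of 6.58 over 20 skeletal muscle genes. Wild-type mouse 320 had 5.93 over the muscle genes. Differences of genes below are therefore also given without the arrays of mice 376 and 198, from a fit that also left out the day-18 knock-in mouse 184. That fit gave 0 calls, with 712 probes at an unadjusted p under 0.05 (2.03%) and 483 genes (2.16%), of which 245 were higher (1.09%) and 238 lower (1.06%). In it 12359 genes (55.2%) had a difference above 0.

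**Figure D1:**
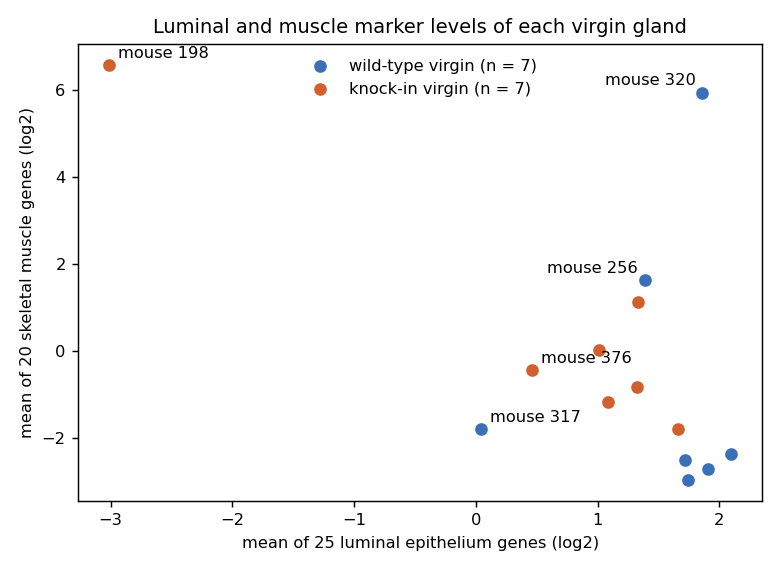
Mean log2 signal of 25 luminal epithelium genes (horizontal axis) and of 20 skeletal muscle genes (vertical axis) on each of the 14 virgin arrays, 1 point per animal. Mouse 198 lies at −3.01 and 6.58, apart from the others, and mouse 320 is the wild-type gland with 5.93 on the muscle axis.

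Does the allele alter the transcript of Socs2 itself? The brightest Socs2 probe, the proximal A_51_P107362, read 1.00, 1.1, 1.5, 1.95, 2.42, 3.2 and 3.30 in the 7 wild-type virgins. In the knock-in virgins it read 0.73, 0.94, 1.07, 1.22, 1.23, 1.81 and 3.01. The groups overlapped through most of their range, and wild-type mice 318 and 320 and knock-in mouse 384 were the 3 highest. The difference was −0.64 ± 0.35, with a 95% interval of −1.37 to 0.09 (exact permutation p = 0.186, two-sided). The other proximal probe differed by −0.71 ± 0.38 (exact permutation p = 0.168).

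The distal probes went the other way. A_55_P2072586 read −3.06, −2.98, −2.75, −2.0, −1.80, −1.47 and −1.45 in wild-type virgins. It read −1.42, −1.08, −1.08, −0.80, −0.67, −0.36 and 0.60 in knock-in virgins. Every knock-in value lay above every wild-type value, but the gap between the groups was only that from −1.45 to −1.42. The difference was 1.53 ± 0.28 (limma adjusted p = 0.543), and its unadjusted p was the smallest of all 35114 probes. Its exact permutation p was 0.000583, the smallest that 3432 splits of 7 against 7 can give. Within slides 1, 2 and 3 it differed by 1.51, 1.38 and 1.95. The nearer distal probe, A_52_P84037, differed by 1.35 ± 0.32 (exact permutation p = 0.0035), with overlapping groups: wild type reached −0.94 and knock-in began at −1.18. After quantile normalization it differed by 0.88 (exact permutation p = 0.155) and after median scaling by 0.97 (exact permutation p = 0.122). A_55_P2072586 differed by 1.10 (exact permutation p = 0.0431) and 1.15 (exact permutation p = 0.0542) under the same settings. Probes whose groups did not overlap numbered 7 higher (0.0199%) and 2 lower (0.0057%) of all tested.

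**Figure D2:**
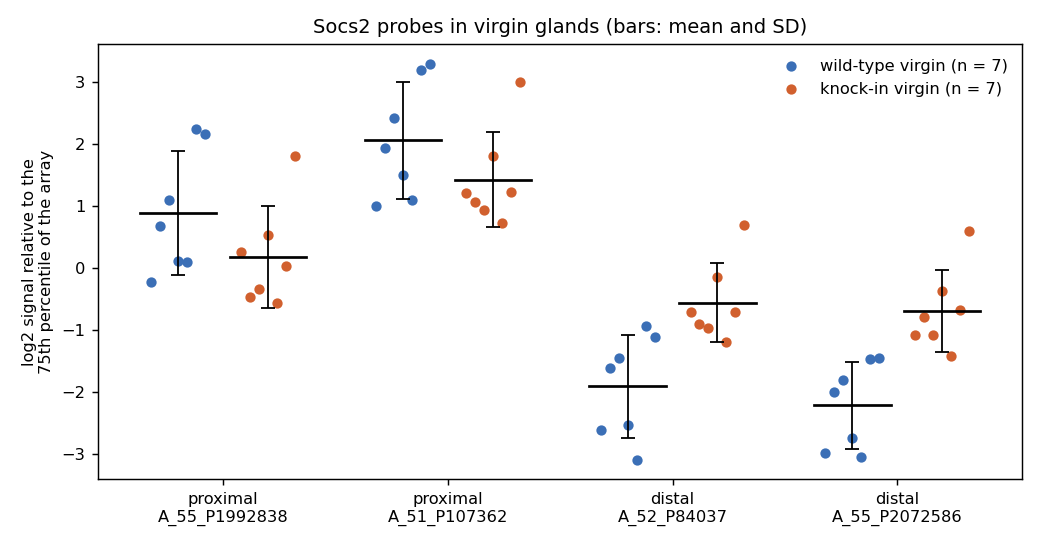
Log2 signal, relative to the 75th percentile of the array, of the 4 Socs2 probes in 7 wild-type and 7 knock-in virgin glands; points are animals, and bars are the mean and SD. The knock-in means are lower at the proximal probes (−0.71 and −0.64) and higher at the distal ones (1.35 and 1.53).

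The unequal change of the probes can be read within an array, where a scaling factor common to all probes cancels. This measure was chosen after the probe values were seen. A_55_P2072586 minus A_51_P107362 ran from −4.75 to −3.95 in wild-type virgins, with a mean of −4.28 ± 0.31 (SD, n = 7). In knock-in virgins it ran from −2.40 to −1.86, with a mean of −2.12 ± 0.20 (SD, n = 7). The groups lay apart, with a difference of 2.17, or 4.49-fold (exact permutation p = 0.000583). Within slides 1, 2 and 3 it was 1.90, 2.08 and 2.37, and without mice 376 and 198 it was 2.12. Mice 320 and 318, at −4.75 and −4.67, were the lowest wild-type glands on this measure and mouse 384, at −2.40, the lowest knock-in gland.

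In the day-18 animals, which share no mouse with the virgins, the same measure ran from −5.15 to −4.29 in 5 wild-type and from −3.13 to −2.43 in 5 knock-in glands. The difference was 1.94 (exact permutation p = 0.00794, the smallest that 252 splits can give). Over both stages all 12 knock-in arrays lay above all wild-type arrays. The other 3 pairings of a distal with a proximal probe differed by 1.99, 2.05 and 2.23 in virgins, each with an exact permutation p of 0.000583. These pairings share probes and animals. Quantile normalization, which changes probes by their rank, took A_55_P2072586 minus A_51_P107362 to 1.53 in virgins (exact permutation p = 0.0245), with 11 of 12 knock-in arrays above all wild types. After it, the virgin difference without mice 376 and 198 was 2.06. Normexp background correction took the same pair to 1.73 in virgins and to 1.13 at day 18, or 2.19-fold where the main value was 3.83-fold, with all 12 above.

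**Figure D3:**
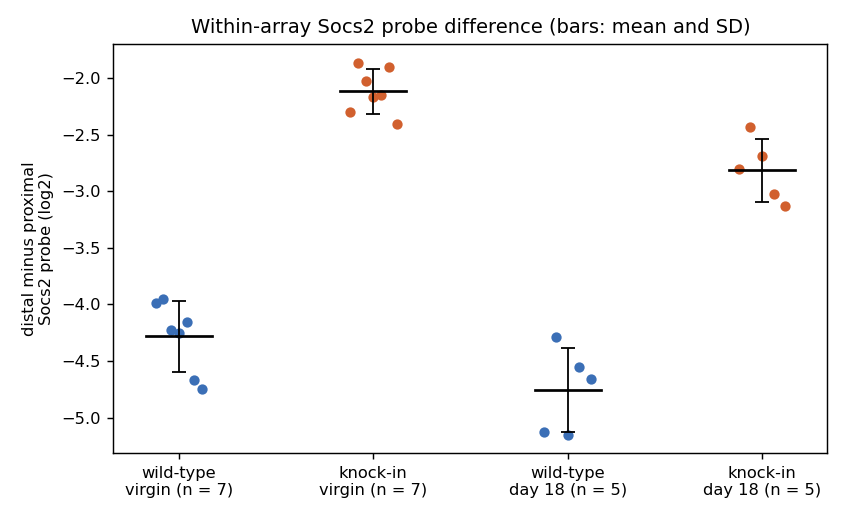
Log2 difference between Socs2 probes A_55_P2072586 (distal) and A_51_P107362 (proximal) on each of the 24 arrays, by genotype and stage; points are animals, and bars are the mean and SD. The 7 knock-in virgins lie between −2.40 and −1.86, above the 7 wild-type virgins at −4.75 to −3.95, and the day-18 groups are separated in the same direction.

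Among the other SOCS genes no member was called. The list of 8 family members measured includes Socs2, by its proximal probe A_51_P107362. All 8, each by its brightest probe, had a difference below 0, with a median of −0.29 beside −0.10 over all genes. Of these, 1 had an unadjusted p under 0.05, or 4 without mouse 384 and 3 without wild-type mouse 188. Without mice 376, 198 and 184 the medians were −0.16 and 0.02. Cish, a STAT5-induced inhibitor of the same receptors, had 0.29 as its lowest, 1.59 as its median and 3.23 as its highest value in wild-type virgins, and −0.46, 0.97 and 3.08 in knock-in virgins. The groups overlapped, and wild-type mice 318 and 320 and knock-in mouse 384 were again the 3 highest. The difference of Cish was −0.87 ± 0.44, and −0.93 without mice 376 and 198. Socs3, which inhibits signalling of the interleukin 6 family, ranged from 1.19 to 3.09 in wild-type and from 0.63 to 2.37 in knock-in virgins and differed by −0.68 ± 0.26, or −0.52 without them. Socs1, a JAK inhibitor, differed by −0.21 ± 0.24 (limma adjusted p = 0.745), or −0.13 without them. The elongins, cullin and RING genes of the SOCS box ligase gave 0 of 6 members at an unadjusted p under 0.05, in either direction, and a median of −0.28. Without mice 376, 198 and 184 that median was −0.02.

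The receptors, kinases and factors upstream of Socs2 gave no call either. Of 11 JAK and STAT genes, 0 had an unadjusted p under 0.05, and the median was −0.21, or 0.01 without mice 376, 198 and 184. Stat5a, the main STAT of prolactin signalling in the gland, ran from 2.63 to 3.57 in wild-type and from 1.29 to 3.26 in knock-in virgins. It differed by −0.55 ± 0.27, and by −0.27 without those mice. Jak2, the kinase bound to the growth hormone and prolactin receptors, differed by −0.46 and by −0.12 without them. The second probes of Stat5a and Jak2 gave −0.07 and −0.01 with all arrays. Ghr, the growth hormone receptor, gave −0.47 and −0.09.

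In the growth hormone, IGF and insulin list, 3 of 19 measured genes were lower and 0 higher at an unadjusted p under 0.05, beside 2.15% and 1.4% of all genes. Igf1, the growth factor induced by growth hormone, read 4.76, 4.95 and 5.26 as lowest, median and highest in wild-type virgins and 2.64, 4.38 and 5.12 in knock-in virgins. The lowest knock-in value was mouse 376, and the other values of the groups overlapped. The difference of −0.69 ± 0.26 became −0.35 without mice 376 and 198 (exact permutation p = 0.0134 and exact permutation p = 0.053). The 3 Igf1 probes ran from −0.69 to −0.01 with all arrays. Igfals, the subunit that keeps IGF in the circulation, differed by −0.55 ± 0.19 and by −0.34. Irs1, an adaptor of the insulin and IGF1 receptors, differed by −0.59 ± 0.26 and by −0.37. Of 14 STAT5 target genes, 2 were lower at an unadjusted p under 0.05 and 0 higher. Gadd45g, a growth arrest gene, ran from 3.43 to 5.51 in wild-type and from 2.85 to 5.18 in knock-in virgins and differed by −0.95 ± 0.33, or −0.82 without mice 376 and 198.

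Which genes differed most, relative to their spread? Lamc3, a laminin gamma chain, was the only gene whose knock-in values all lay below the wild-type values (1 of 22380, 0.00447%). It read 0.40, 0.52 and 0.89 as lowest, median and highest in wild-type virgins and −0.79, −0.16 and 0.38 in knock-in virgins. It differed by −0.73 ± 0.17, or 1.66-fold, by −0.72 without mice 376 and 198, and by −0.63 ± 0.21 at day 18. Its second probe gave −0.24. The 3 genes whose knock-in values all lay above wild type (0.0134%) are transcripts without a gene symbol in these files: ENSMUST00000117727.1, AK153785 and a transcript known only by its position.

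Ston2, an adaptor of clathrin-dependent endocytosis, read −1.67 to −0.87 in wild-type virgins with a median of −1.28. Knock-in virgins read −3.82, −3.44, −3.26, −3.05, −2.07, −1.89 and −1.16. The knock-in value within the wild-type range was mouse 376, and without it the groups did not overlap. Without mice 376 and 198, 8 genes lay wholly above wild type (0.0357%) and 5 wholly below (0.0223%). The difference was −1.45 ± 0.34, a 2.74-fold lower level, and −1.91 without mice 376 and 198. In that fit its limma adjusted p was 0.0665, the smallest adjusted p reached there. Its 2 probes gave −1.46 and −1.45, and the day-18 difference was −1.18 ± 0.40. Within slides 1, 2 and 3 it was −1.40, −0.48 and −2.52. Sostdc1, an inhibitor of BMP and WNT signalling, differed by −0.91 ± 0.25, by −0.65 without those mice and by −0.90 at day 18.

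Areg encodes amphiregulin, the EGF receptor ligand that oestrogen induces in the virgin duct. Wild-type virgins read 1.07, 1.75, 2.03, 2.21, 2.47, 3.40 and 4.03. Knock-in virgins read −4.31, −2.26, −0.57, −0.25, 0.30, 0.34 and 1.72. All but the highest knock-in value lay below the lowest wild-type value. The difference was −3.14 ± 0.84, or 8.82-fold (exact permutation p = 0.00117), and −2.45 without mice 376 and 198 (exact permutation p = 0.00253). The lowest value was mouse 198, which was also lowest in luminal markers. Areg was not called in the main fit, and it was also not called once the luminal and muscle scores of the arrays entered the fit. It was among the 51 of 52 named genes that kept their direction there. How large a part epithelial content has in the result was not tested. In bulk tissue, fewer cells of a type and less RNA per cell cannot be told apart. At day 18 Areg differed by 2.21 ± 0.99, and the difference between the stages did not pass (limma adjusted p = 1).

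Sprr1a, a cornified envelope protein, read −1.05, 0.07 and 1.86 as lowest, median and highest in wild-type virgins and −7.01, −3.09 and −0.09 in knock-in virgins, where 5 of 7 arrays were well above background. It differed by −3.54 ± 0.81, and by −3.30 without mice 376 and 198. Mmd2, a membrane protein, differed by −2.26 ± 0.63 and by −2.79. Prag1, a pseudokinase scaffold, differed by −1.13 ± 0.25 and by −0.73, and its 3 probes ran from −1.13 to 0.51. Sik1, a kinase of the AMPK family, differed by −1.06 ± 0.28 and by −0.81. Tnfrsf18, a receptor on activated and regulatory T cells, gave −0.88 ± 0.23 and −0.78. Cacna1g, a T-type calcium channel, gave −0.81 ± 0.22 and −0.59, and its 3 probes ran from −0.81 to −0.19. The homeobox gene Irx3 gave −1.17 ± 0.34 and −0.71. Tgif2, a homeobox repressor, gave −0.87 ± 0.25 and −0.69, and its second probe −0.12.

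On the higher side, Kng1, the kininogen from which bradykinin is cut, read −3.15, −2.46 and −1.10 in wild-type and −2.16, −0.81 and −0.34 in knock-in virgins. It differed by 1.35 ± 0.33, or 2.55-fold, and by 1.15 without mice 376 and 198. At day 18 the difference was 0.94 ± 0.39. Hoxd9, a homeobox gene of body patterning, read −2.29, −2.08 and −1.51 in wild-type and −1.65, −1.36 and −1.03 in knock-in virgins. It differed by 0.68 ± 0.17 in virgins (exact permutation p = 0.00175) and by −0.23 at day 18. Slc6a13, a transporter of GABA and taurine, differed by 0.89 ± 0.29, and by 0.90 without those mice. Prss27, a serine protease, gave 1.09 ± 0.36 and 0.97. Lef1, a factor of WNT signalling, gave 1.25 ± 0.43 and 0.99.

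**Figure D4:**
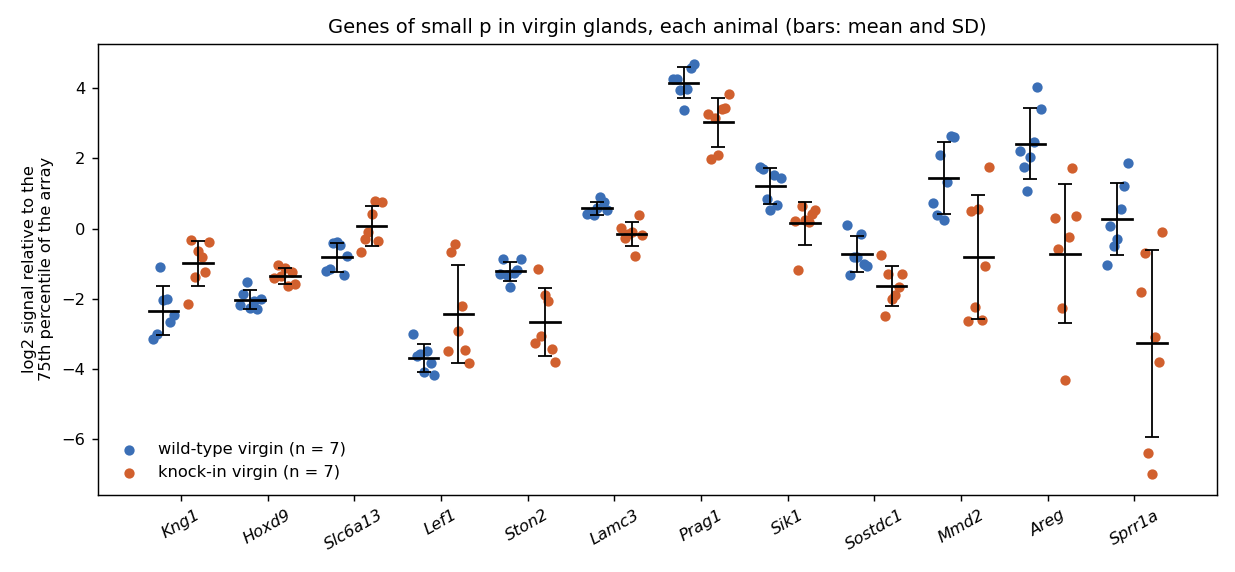
Log2 signal, relative to the 75th percentile of the array, of 12 genes of small p in 7 wild-type and 7 knock-in virgin glands; points are animals, and bars are the mean and SD. Lamc3 is the gene without overlap (wild type from 0.40, knock-in up to 0.38), and Areg and Sprr1a spread most widely among knock-in animals.

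Were the cell types of the gland present in both groups? Krt8, Krt18, Krt5, Krt14, Adipoq, Col1a1 and Csf1r were well above background on all 14 virgin arrays, and the luminal marker Epcam on 7 wild-type and 6 knock-in arrays, with a lowest knock-in value of −4.80. The muscle marker Ckm was well above background on 3 wild-type and 6 knock-in arrays, Ucp1 of brown fat on 6 and 7, and Ms4a1 of B cells on 6 and 6. Luminal epithelium genes had a median of −1.0, and 11 of 25 were lower at an unadjusted p under 0.05, with 0 higher. Krt8, a luminal keratin, read 4.16, 6.06 and 7.03 as lowest, median and highest in wild-type and −1.13, 5.21 and 5.99 in knock-in virgins. Its difference of −1.67 ± 0.74 became −0.48 without mice 376 and 198. Without mouse 198 alone, 2 of the 25 genes were lower, and without mice 376, 198 and 184 the count was 1 and the median −0.20. Without wild-type mouse 317, the wild-type gland of lowest luminal level, it was 16, and without any other wild-type mouse it was 3 to 7. Without knock-in mouse 376 it was 5. Cldn7, a claudin of epithelial junctions, differed by −1.39 ± 0.47 and by −0.57.

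Milk protein genes spread widely within genotypes. Wap, whey acidic protein, read −7.20, −6.71, 0.67, 1.19, 1.35, 3.12 and 5.09 in wild-type virgins. It read −5.81, −5.29, −5.28, −4.33, −3.05, −1.45 and −0.89 in knock-in virgins. Wild-type mice 365 and 369 lay below all knock-in glands and the other 5 wild-type glands above all of them. The difference was −3.37 ± 1.40, or −3.82 without mice 376 and 198, and the probe was well above background on 5 wild-type and 4 knock-in arrays. Glycam1, a mucin of milk, differed by −3.0 ± 1.0, or −3.10 without those mice. Csn1s1, alpha casein, differed by −3.32 ± 1.16 at a probe that was well above background on 6 wild-type but only 3 knock-in arrays, and by 0.26 at its second probe. Without those mice the first value was −2.97. Csn3, kappa casein, differed by −1.92 ± 0.65 and by −0.74 without those mice, and its 3 probes ran from −1.92 to −0.64. Of 25 milk genes, 7 were lower at an unadjusted p under 0.05 and 0 higher, a count that ran from 3 without wild-type mouse 188 or 256 to 11 without wild-type mouse 365 or knock-in mouse 196. The list median of −0.65 was −0.32 without mice 376, 198 and 184.

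Hormone receptors and their paracrine mediators had 2 of 19 genes lower and 0 higher at an unadjusted p under 0.05, beside 2.15% and 1.4% of all genes. Without wild-type mouse 317 the lower count was 7, without knock-in mouse 384 it was 4, and without wild-type mouse 188 or 365 or knock-in mouse 376, 314 or 198 it was 1. Pgr, the progesterone receptor, ran from −1.38 to 1.71 in wild-type and from −2.09 to 1.5 in knock-in virgins and differed by −0.94 ± 0.48, or −0.63 without mice 376 and 198. Greb1, an oestrogen receptor cofactor, ran from −1.82 to 2.22 and from −1.99 to 2.41 and differed by −0.78 ± 0.71, or −1.06. In both genes mouse 384 was the highest knock-in gland, and wild-type mice 256, 318 and 320 were the 3 highest of their group. The labels give no stage of the oestrous cycle. Prlr, the prolactin receptor, differed by −1.02 ± 0.64 with all arrays and by 0.08 without mice 376, 198 and 184. Calca, the calcitonin gene, differed by −1.79 ± 0.84, or −1.47, and its second probe by −0.66.

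Red blood cell genes had 6 of 8 measured members lower at an unadjusted p under 0.05 and 0 higher, against 2.15% of all genes lower. The median was −0.85, and −0.83 without mice 376, 198 and 184. Alas2, the first enzyme of haem synthesis in erythroid cells, read −0.06, 1.02 and 2.34 as lowest, median and highest in wild-type and −0.60, 0.10 and 1.01 in knock-in virgins, with overlapping groups and a difference of −0.85 ± 0.35, or −0.84 without mice 376 and 198. Hba-a1, an alpha globin, differed by −0.85 ± 0.37, or −0.67, and Hbb-bt, a beta globin, by −1.10 ± 0.44, or −0.90. Globin genes share sequence, so their probes are not independent. The count was 0 of 8 without wild-type mouse 317 or 369 or knock-in mouse 376, 3 without wild-type mouse 365, and 6 in the fit without mice 376, 198 and 184.

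Immediate early and stress genes had 8 of 20 members lower and 0 higher, with a median of −0.52, beside 2.15% of all genes lower and a median of −0.10. Myc, a growth-promoting transcription factor, read 0.19, 0.38 and 0.50 in wild-type and −0.42, −0.19 and 0.34 in knock-in virgins and differed by −0.50 ± 0.15. It kept that size, −0.52, without mice 376 and 198. Egr2, Ier3 and Fosl2, all early response genes, differed by −1.04 ± 0.39, −0.68 ± 0.26 and −0.54 ± 0.22, or −0.70, −0.60 and −0.46 without those mice. Without mouse 376 the count was 4, and without mice 376, 198 and 184 it was 2 and the median −0.29. ER chaperones and unfolded protein response genes had 5 of 20 lower and 0 higher, among them Xbp1 at −0.58 ± 0.24, Creld2 at −0.51 ± 0.22 and Manf at −0.53 ± 0.23, or −0.34, −0.27 and −0.30 without those mice. Without mouse 376 that count was 1, without wild-type mouse 317, 369 or 318 it was 2, without wild-type mouse 365 or 320 or knock-in mouse 314 it was 3, and without knock-in mouse 384 it was 14.

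T and NK cell genes were the list with most members on the higher side: 4 of 17 had an unadjusted p under 0.05, against 1.4% of all genes, and 0 were lower. The median was 0.31, and 0.22 without mice 376, 198 and 184, where the count was 0. Cd8a, a co-receptor of cytotoxic T cells, read −5.09, −4.83 and −4.17 in wild-type and −5.11, −3.71 and −1.48 in knock-in virgins. The highest value was mouse 376, and the probe was well above background on 6 arrays of each group. The difference was 1.03 ± 0.39, or 0.61 without mice 376 and 198. Cd3d, a subunit of the T cell receptor complex, differed by 0.59 ± 0.26, or 0.53. The count was 7 without knock-in mouse 384, 2 without wild-type mouse 256 or knock-in mouse 376, and 1 without wild-type mouse 317 or 320 or knock-in mouse 314, 198 or 251.

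White adipocyte genes had 2 of 24 members higher and 0 lower, with a median of −0.18, or 0.12 without mice 376, 198 and 184. Lep, leptin, read −1.95, −1.53 and −1.38 in wild-type and −1.62, −1.26 and −0.57 in knock-in virgins and differed by 0.44 ± 0.16, or 0.33 without mice 376 and 198. Npr3, the clearance receptor of natriuretic peptides, read 0.50, 1.16 and 2.10 in wild-type and 0.16, 2.55 and 3.22 in knock-in virgins. Apart from mouse 376 at 0.16, knock-in glands read 1.43 or more. Its difference was 0.86 ± 0.41, and 1.16 without mice 376 and 198. Skeletal muscle genes had a median of 1.14 with all arrays and −0.15 without mice 376, 198 and 184, and 0 of 20 had an unadjusted p under 0.05. Without the muscle-rich wild-type mouse 320 the median was 2.35, with 1 of 20 higher, and without knock-in mouse 198 alone it was −0.01.

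**Figure D5:**
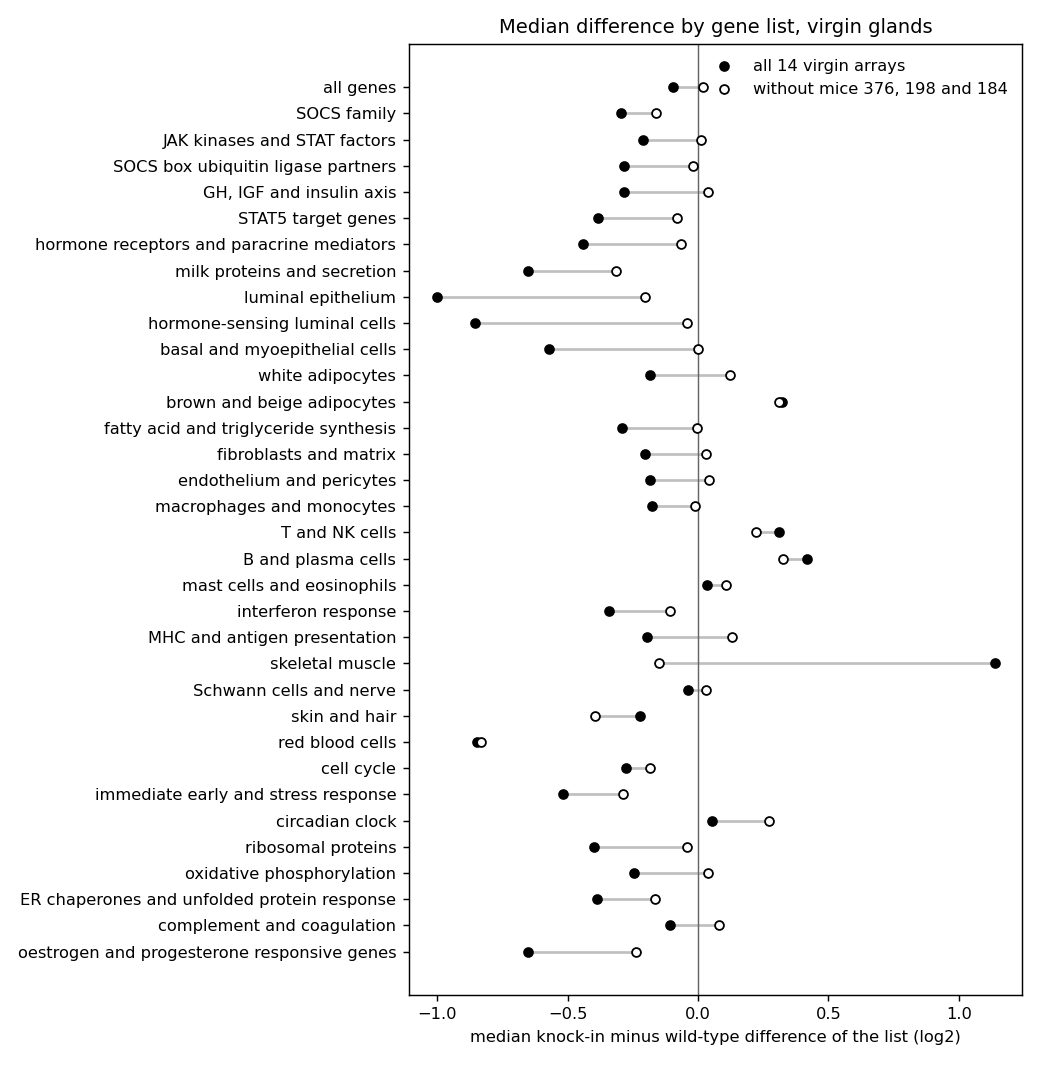
Median knock-in minus wild-type difference (log2) in virgin glands for all 22380 genes and for each of 33 gene lists; filled points use all 14 virgin arrays, and open points come from the fit without mice 376, 198 and 184. The luminal epithelium median moves from −1.0 to −0.20 and that of skeletal muscle from 1.14 to −0.15, while that of red blood cells stays at −0.85 and −0.83.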

How the data were processed

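Per the file headers, the authors extracted each spot with Agilent Feature Extraction 12.0.3.2; the deposited values are intensity, background-subtracted within the array and not scaled between arrays. The deposited series matrix holds the authors' log10 values of the same signals, within 0.005 of the scanner values. Outlier spots were set to missing, replicate spots averaged as log2, and each array's 75th percentile over probes was subtracted. Of 56605 probes, a probe was kept where 80% or more of some group's arrays had it well above background. Group means were fitted to all 24 arrays with limma 3.58.1 in R 4.3.3, with Benjamini-Hochberg adjustment over all 35114 probes. Exact permutation tests are two-sided. The files hold no record that animals were littermates, and their number limits the precision. Genes were named by rule: all Socs2 probes, the 15 smallest p values in each direction among genes well above background on all virgin arrays, all members of 5 signalling lists, and up to 4 of smallest p and 4 brightest of each other list; the text gives 52 of them with every Socs2 probe, and leaves out the rest. The comparison, the lists and the rule were chosen with earlier results of these data known. The fit was tested on simulated data in which every group had the spread of the wild-type virgins. That test did not include the wider spread of the knock-in virgins, so it does not show how the fit behaves there.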

Additional observations from a re-analysis of the deposited data

Results flagged for a closer look

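In 12 of 116 groups checked, 1 animal lay far from the other 6 of its genotype by Dixon's criterion. Chance marks about 1 in 20 such groups. The same animals enter many of the groups, and Krt8 and Krt18 were marked in the same mice, so the groups are not independent checks. Knock-in mouse 376, whose array had the raised negative-control signal, was low for Sik1 at −1.20, Jak2 at −1.82, Igf1 at 2.64 and Xbp1 at 3.93. Knock-in mouse 198 was low for Krt8 at −1.13, Krt18 at −0.0035 and Cldn7 at −2.94. Wild-type mouse 317 was low for Krt8 at 4.16, Krt18 at 4.85 and Csn3 at 3.12. Knock-in mouse 384 was low for Prss27 at −3.81, and knock-in mouse 313 was high for Calca at 1.19.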

How the results depend on the processing

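No paired analysis was possible because every animal has a number of its own. Of 30 alternatives, the counts of called probes were 0 higher and 0 lower in all but array weights, which gave 1 higher (Olfr1396) and 6 lower (Sprr1a, Mmd2, Prag1, Sh2d4b and both Ston2 probes) and weighted mouse 376 at 0.0315. With 1 virgin array left out the counts stayed at 0 and 0, and unadjusted counts over genes ran up to 847 higher and 1142 lower without mouse 384. Leaving out 1 array, A_55_P2072586 ran from 1.31 to 1.66, A_52_P84037 from 1.14 to 1.51, A_51_P107362 from −0.90 to −0.43 and A_55_P1992838 from −0.98 to −0.48. The exact permutation p of A_55_P2072586 was 0.00233 with spike-in scaling and 0.00117 with the percentile taken over all spots, an alternative chosen after seeing the data. A_52_P84037 minus A_51_P107362 was 1.30 after quantile normalization (exact permutation p = 0.0711). Within slides 1, 2 and 3 it was then 0.13, 1.96 and 2.10, and without mice 376 and 198 it was 1.91. The cause was not tested. Prlr turned to 0.0794 without mice 376, 198 and 184 and to 0.12 once the luminal and muscle scores entered the fit; the cause was not tested. The median of all probes moved to −0.15 with quantile normalization, −0.39 with median scaling and 0.30 without the filter on dim probes.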

Other observations

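The remaining lists are given with counts at an unadjusted p under 0.05 in virgins, beside 2.15% of all genes lower and 1.4% higher. Oestrogen and progesterone responsive genes had 4 of 11 lower and 0 higher, with a median of −0.65, or −0.24 and 1 lower without mice 376, 198 and 184. Leaving out 1 virgin array, that count ran from 2 (without wild-type mouse 188 or 365 or knock-in mouse 376 or 198) to 6 (without wild-type mouse 317). Hormone-sensing luminal genes had 3 of 15 lower and 0 higher, and a median of −0.86, or −0.04 without those mice, with 1 lower without wild-type mouse 365 or knock-in mouse 314, 198 or 251 and 6 lower without wild-type mouse 317. Basal and myoepithelial genes had 3 of 18 lower and 1 higher, and medians of −0.57 and 0.00. Without mice 376, 198 and 184 they had 0 lower and 0 higher. The lower count was also 0 without wild-type mouse 318 or 320 or knock-in mouse 376 or 198. It was 8 without wild-type mouse 317. Skin and hair genes had 2 of 7 lower, with medians of −0.22 and −0.39, and complement and coagulation genes 2 of 20 lower, with medians of −0.11 and 0.08. Without mice 376, 198 and 184 skin and hair genes again had 2 lower. Complement and coagulation genes then had 0 lower and 1 higher.

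B and plasma cell genes had a median of 0.42, or 0.32 without those mice, with 1 of 12 lower and 0 higher. Brown and beige adipocyte genes had medians of 0.32 and 0.31, with 0 of 13 in either direction. Interferon response genes had 0 of 27 in either direction and medians of −0.34 and −0.11. Macrophage genes had 1 of 22 lower, fibroblast and matrix genes 1 of 24 lower, and endothelium and pericyte genes 0 of 20, with medians of −0.18, −0.20 and −0.18. Without those mice these medians were −0.01, 0.03 and 0.04. Ribosomal protein genes had 0 of 34 and oxidative phosphorylation genes 0 of 24 in either direction, with medians of −0.40 and −0.25 that became −0.04 and 0.04 without those mice.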
